A study of Homo sapiens with 8 samples.

Results

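Cells of the triple-negative breast cancer line SUM159 that had been passaged in DMSO, the vehicle of the study's drugs, were compared with cells of the same barcoded population taken before any passaging with drug or vehicle. Membership was set by the library each cell came from: the DMSO library held 459 cells and the pre-treatment library 602, of 5738 cells in 8 single-cell RNA libraries. The pre-treatment library was labelled as parental. The DMSO library belonged to the JQ1+paclitaxel experiment and came from cells grown for up to 18 passages without drug. All cells carried lentiviral ClonTracer DNA barcodes, cells at each passage were stored frozen, and the labels describe pooling equal numbers of cells of 3 parallel cultures before encapsulation, without saying whether this also holds for the pre-treatment cells. Each side was 1 library, and cultures inside it could not be separated. The other 6 libraries (paclitaxel, palbociclib, JQ1-A, JQ1-B, JQ1+paclitaxel and JQ1+palbociclib) received 0.6 nM paclitaxel, 160 nM palbociclib or 100 nM JQ1, singly or combined, and are used here only to set each value beside others. The comparison asks what long culture in vehicle alone did to the RNA of these cells.

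SUM159 is a mesenchymal-like line that lacks the oestrogen and progesterone receptors and has no amplified ERBB2. A cultured tumour line is a mixture of lineages, and over many passages lineages that divide faster take a larger share of the plate, while the cells also adapt to density, medium and splitting. RNA counted cell by cell shows both kinds of difference, since a level can be higher in the sum because every cell made more of a transcript or because cells that always made more of it became more common. With 1 library a side, long culture, freezing, encapsulation and library preparation cannot be told apart, no test was possible, and the 95% intervals given below cover counting error only.

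Both libraries were alike in quality. The pre-treatment library held 14101630 unique molecules (UMIs) and the DMSO library 10621159, with a median of 21451 and 20664 UMIs per cell, 4019.5 and 4014 genes per cell, and 3.96% and 3.81% of UMIs from mitochondrial genes. They shared 0 cell barcodes. The label of the line was checked against marker genes: VIM, the intermediate filament of mesenchymal cells, stood at 4301 UMIs per 1000000 UMIs of the library (CPM) before treatment and 4080 CPM in DMSO, ESR1 had 0 UMIs in both, PGR had 1 UMI and 0 UMIs, and the summed level of the measured blood and immune markers was 1.28 CPM and 1.69 CPM. No doublet caller was run, and since all cells are of 1 line there was no cell type in which free RNA could be gauged.

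Summed over cells, the profiles lay close together. Of 6740 genes whose CPM averaged 10 or more in the pair of libraries, 14 (0.208%) were at least 2-fold higher in DMSO and 26 (0.386%) at least 2-fold lower, and the whole interval lay past 2-fold for 8 and 10 of these. At 1.5-fold, 105 genes (1.56%) were higher and 119 (1.77%) lower. The median absolute log2 ratio, centred on the median gene, was 0.148. JQ1-A and JQ1-B, from the JQ1 arms of separate experiments, were the only 2 libraries passaged under the same condition. They differed at a median of 0.117, with 2 genes (0.0315%) at least 2-fold higher in JQ1-B and 6 (0.0944%) at least 2-fold lower. At 1.5-fold those shares were 0.472% and 0.723%. As these 2 were selected separately, their difference is not one of library preparation alone. With all 4 libraries thinned to 10621159 UMIs, an alternative added after seeing the data, the medians were 0.152 and 0.126, and the counts were 14 and 30 genes for DMSO against 2 and 9 for the JQ1 pair.

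**Figure D1:**
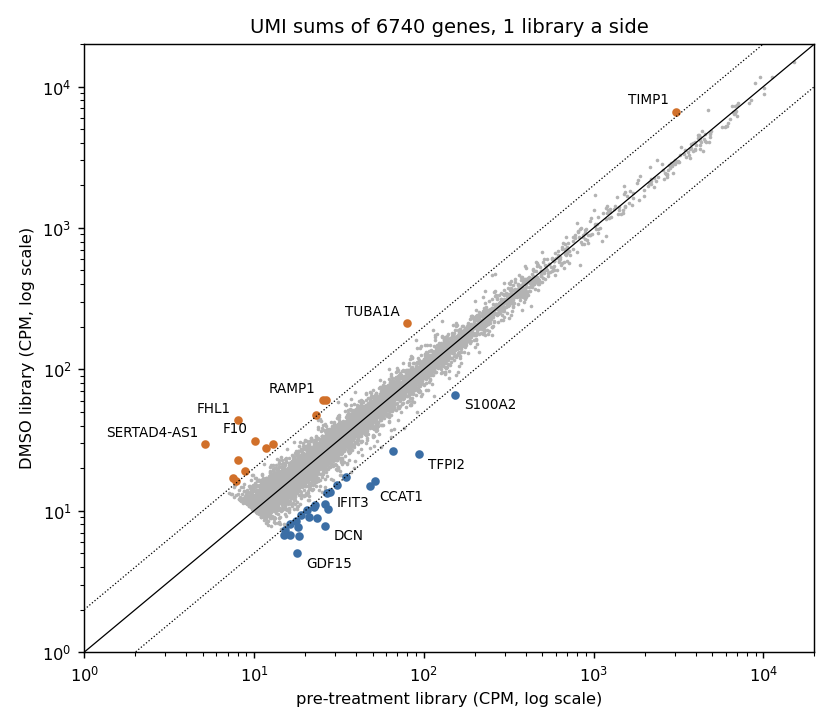
Each point is 1 of 6740 genes, with its level in the pre-treatment library (x axis, CPM, log scale) and in the DMSO library (y axis, CPM, log scale); the solid line marks equal levels and the dotted lines a 2-fold difference. The 14 genes at least 2-fold higher in DMSO (orange) include TIMP1 at 3060 and 6640 CPM, and the 26 lower genes (blue) are led by TFPI2 at 93.7 and 25.1 CPM.

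FHL1, which encodes a LIM-domain protein of the cytoskeleton and nucleus, stood at 8.01 CPM before treatment and 43.7 CPM in DMSO, and between 10.7 and 40.8 CPM in the other 6 libraries. That was 5.45-fold (95% exact interval 4.43 to 6.76), and DMSO held the highest level of the 8 libraries. The gain came from many cells: in cells thinned to 10000 UMIs, 6.35% had an FHL1 UMI before treatment and 32.4% in DMSO (12.5% and 47.5% before thinning), and no cell had more than 4 UMIs. Thinning left out 19 pre-treatment and 14 DMSO cells that were shallower or failed the study's filter. SERTAD4-AS1, a long non-coding RNA, showed the same form, at 5.18 and 29.6 CPM (5.71-fold, 4.41 to 7.47) and with a UMI in 4.29% and 26.7% of thinned cells (9.47% and 44.7% before thinning). Both genes were scarce before treatment. At such low counts a higher level in every cell would also raise the share of cells with a UMI. These shares therefore do not tell more expressing cells from more RNA in each cell. In CPM itself the 5 largest differences were those of TIMP1 (3580 CPM higher), the nuclear non-coding RNA MALAT1 (2240), the metallothionein MT2A (2116), the ferritin light chain FTL (1736) and the glycolytic enzyme GAPDH (790.0).

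TUBA1A, an alpha-tubulin isotype of microtubules, stood at 80.1 CPM and 211.6 CPM, against 50.2 to 179.6 CPM in the other 6 libraries. Its ratio was 2.64 (2.46 to 2.84), and its level in DMSO was the highest of the 8. F10, the precursor of coagulation factor X, was at 10.1 and 31.4 CPM (3.11-fold, 2.55 to 3.82). RAMP1, an accessory protein of the CGRP receptor, was at 25.5 and 60.4 CPM (2.36-fold, 2.07 to 2.70), and here DMSO lay just below the 61.5 to 295.7 CPM of the drug-selected libraries, so that the pre-treatment library stood alone at the bottom. ARHGAP29, which inactivates RhoA, was at 23.0 and 47.3 CPM (2.05-fold, 1.78 to 2.37), and MGP, a secreted inhibitor of calcification, at 31.4 and 59.0 CPM (1.88-fold, 1.66 to 2.13). The ratio of MGP differed between groups of cells called by score as G1, S or G2/M of the cell cycle. It was 0.679 (0.491 to 0.929) in cells called G1, 3.59 (2.93 to 4.40) in S and 1.60 (1.30 to 1.97) in G2/M. Whether a few cells set these values was not tested.

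**Figure D2:**
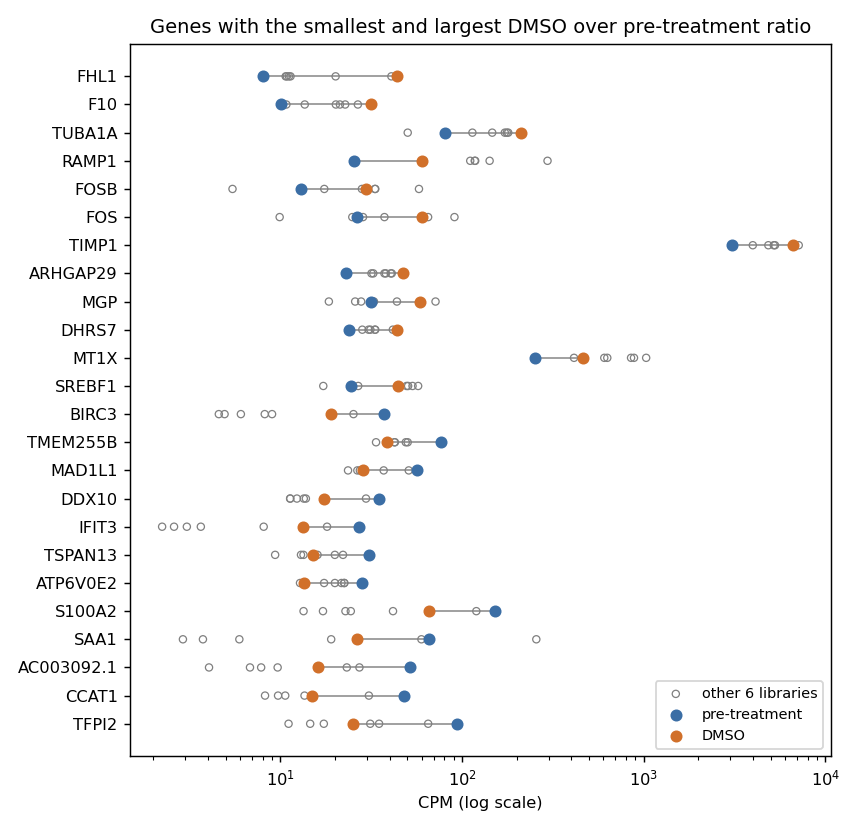
Levels (CPM, log scale) of the 12 genes with the largest and the 12 with the smallest ratio of DMSO over pre-treatment among genes averaging 20 CPM or more; filled points are pre-treatment (blue) and DMSO (orange) and open points the other 6 libraries. FHL1, F10, TUBA1A, ARHGAP29 and DHRS7 were highest in DMSO of all 8 libraries, and every one of the 12 lower genes except SAA1 was highest before treatment.

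The genes with the smallest ratios are described next. TFPI2, a secreted inhibitor of serine proteases, stood at 93.7 CPM before treatment and 25.1 CPM in DMSO, 3.73-fold lower (3.26 to 4.27), with 11.1 to 65.1 CPM in the other 6 libraries. A UMI of it was found in 34.3% and 13.7% of thinned cells (48.5% and 21.4% before thinning). GDF15, a stress-induced cytokine of the TGF-beta family, was at 17.9 and 4.99 CPM, 3.58-fold lower (2.65 to 4.91). DCN, the collagen-binding proteoglycan decorin, was at 26.2 and 7.81 CPM, 3.35-fold lower (2.63 to 4.30), whereas 15 of 20 measured genes in the list of collagens, laminins and other matrix were higher, and DCN was the 1 member at least 1.5-fold lower. GDF15 was found in 7.89% and 2.70% of thinned cells (12.5% and 5.45% before thinning) and DCN in 18.2% and 5.62% (28.9% and 10.0% before thinning), so that all 3 were found in fewer cells in DMSO.

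The long non-coding RNAs CCAT1 and CASC8, both from the MYC neighbourhood of chromosome 8, were at 48.2 and 14.9 CPM (3.24-fold lower, 2.72 to 3.87) and at 63.7 and 33.3 CPM (1.91-fold lower, 1.69 to 2.17). MYC itself, the growth-promoting transcription factor, was at 263.1 and 355.7 CPM and so 1.35-fold higher (1.29 to 1.42). AC003092.1, another non-coding RNA, was at 51.7 and 16.2 CPM, 3.19-fold lower (2.70 to 3.79). S100A2, a calcium-binding protein of basal epithelia, was at 152.3 and 65.8 CPM, 2.31-fold lower (2.12 to 2.52), and its pre-treatment level was above the 13.4 to 119.9 CPM of the drug-selected libraries. MMP1, an interstitial collagenase, was at 27.2 and 10.4 CPM, 2.63-fold lower (2.12 to 3.28), while SAA1, an acute-phase protein, was at 65.5 and 26.5 CPM, 2.47-fold lower (2.16 to 2.84). For SAA1 the highest 5% of cells held 66.5% of all its UMIs before treatment and 90.4% in DMSO, so that a few cells set its sum.

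TIMP1, an inhibitor of matrix metalloproteinases encoded at chrX:47441807-47446188 (GRCh37), showed the largest difference among abundant genes, at 3060 CPM before treatment and 6640 CPM in DMSO (2.17-fold, 2.14 to 2.20), with 3059 to 7147 CPM in the other 6 libraries. It was found in nearly every cell. The middle 50% of thinned cells held 7 to 36 TIMP1 UMIs with a median of 15 before treatment, and 18 to 86 with a median of 43 in DMSO. The ratio was 1.37 (1.32 to 1.42) among cells called G1, 2.30 (2.26 to 2.34) in S and 2.36 (2.32 to 2.41) in G2/M, so that the difference was smaller in G1 cells.

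Across single cells TIMP1 went together with PAGE5, a cancer-testis antigen gene at chrX:55246779-55250541 (GRCh37), a pattern picked out after the values were seen. Among 4586 genes in 583 pre-treatment cells and 4622 genes in 445 DMSO cells, PAGE5 had the highest correlation with TIMP1 in both libraries (Pearson's r of log counts over cells, 0.551 and 0.583). The next genes were GS1-600G8.5 before treatment (0.367) and S100A11 in DMSO (0.366). Cells of 1 library share its preparation, so these values describe the libraries and carry no p.

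PAGE5 was not detected in 330 of 583 cells before treatment and in 173 of 445 cells in DMSO, so that 43.4% (exact binomial interval 39.3 to 47.5) and 61.1% (56.4 to 65.7) of thinned cells had a UMI, and 48.5% and 67.1% before thinning. Cells without a PAGE5 UMI held a median of 9 TIMP1 UMIs before treatment and 16 in DMSO. Cells with one held 35 and 65. Mean TIMP1 was thus 1.94-fold higher in DMSO among cells without and 1.77-fold higher among cells with a PAGE5 UMI. Pre-treatment means of 14.1 and 47.4 UMIs, weighted by the DMSO shares of the 2 kinds of cell, gave 34.4 UMIs per cell, between the measured means of 28.5 before treatment and 61.9 in DMSO. PAGE5 averaged 1.75 UMIs per thinned cell before treatment and 2.09 in DMSO, so cells that express it can lack a UMI. The split therefore cannot tell a changed share of such cells from more TIMP1 in each cell. Cells with at least 3 PAGE5 UMIs made up 29.0% before treatment and 35.7% in DMSO, a smaller difference in share. The shares, and any weighting by them, therefore also depend on the cut. PAGE5 itself was at 190.0 and 237.7 CPM (1.25-fold, 1.18 to 1.32). The list of cancer-testis antigens to which it belongs had 9 measured members, of which 4 were higher and 5 lower, with a median log2 ratio of -0.12 and 0 members past 1.5-fold.

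**Figure D3:**
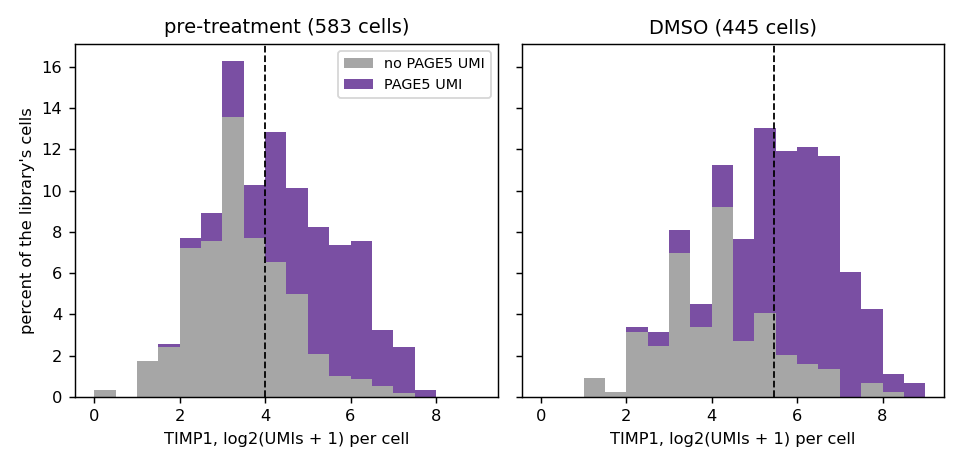
Distribution of TIMP1 over cells thinned to 10000 UMIs (x axis, log2 of UMIs + 1; y axis, percent of the library's cells), stacked by whether the cell had a PAGE5 UMI (purple) or not (grey); dashed lines mark the medians of 15 UMIs in 583 pre-treatment cells and 43 UMIs in 445 DMSO cells. The purple cells lie to the right of the grey ones in both panels and make up 43.4% and 61.1%.

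Groups of genes were described by counts beside all genes, of which 54.3% were higher in DMSO, 1.56% at least 1.5-fold higher and 1.77% at least 1.5-fold lower, with a median log2 ratio of 0.02. The immediate early genes, transcription factors and regulators induced within minutes of a growth or stress signal, stood higher: 20 of 24 measured members were higher, 5 by at least 1.5-fold and 0 lower by that much, with a median log2 ratio of 0.43. FOS was at 26.4 and 60.4 CPM (2.29-fold, 2.01 to 2.61), FOSB at 12.9 and 29.8 CPM (2.31-fold, 1.91 to 2.78) and IER2 at 113.7 and 190.0 CPM (1.67-fold, 1.56 to 1.79). CYR61 (1.57-fold) and NR4A1 (1.62-fold) completed the 5, and FOSL1 was the lowest member at 0.771-fold. The summed list was higher in the bulk of cells, with a median of 26 UMIs per thinned cell before treatment and 34 in DMSO.

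Metallothioneins, which bind zinc and copper, had a median log2 ratio of 0.52 over 4 measured members. MT2A was at 4711 and 6827 CPM (1.45-fold, 1.43 to 1.46) and MT1X at 253.4 and 464.5 CPM (1.83-fold, 1.76 to 1.91), below all 6 drug-selected libraries in both cases before treatment. MT1F was 1.42-fold higher and MT1E was at 228.3 and 203.7 CPM (0.893-fold, 0.845 to 0.943), the one member lower in DMSO. MT2A and MT1X went together over cells, with r of 0.551 and 0.564. The bases before their start sites (RefSeq, GRCh38.p14, plus strand, chr16:56608334-56608583 for MT2A and chr16:56682220-56682469 for MT1X) are shown because these 2 genes carry the group's difference. Capitals mark the core of the metal response element, searched as TGCACNC or TGCGCNC on both strands: MT2A held 7 matches and MT1X 4, and 24.8% of 35116 promoters held at least 1 in their 250 bases.
MT2A: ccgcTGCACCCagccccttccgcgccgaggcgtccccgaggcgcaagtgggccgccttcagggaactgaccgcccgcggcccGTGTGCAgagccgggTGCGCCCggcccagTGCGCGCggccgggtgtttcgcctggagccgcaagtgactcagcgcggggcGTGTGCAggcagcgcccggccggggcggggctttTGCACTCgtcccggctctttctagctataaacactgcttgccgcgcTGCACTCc
MT1X: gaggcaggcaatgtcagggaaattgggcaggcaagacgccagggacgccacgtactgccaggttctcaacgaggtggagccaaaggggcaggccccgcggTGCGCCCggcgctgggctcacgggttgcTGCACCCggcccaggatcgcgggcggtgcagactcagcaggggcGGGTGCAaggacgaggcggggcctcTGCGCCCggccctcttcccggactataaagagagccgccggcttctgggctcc
A match is a stretch of letters and was not measured as a bound site.

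Targets of NRF2, the transcription factor of the oxidative-stress response, were mostly higher, 21 of 25, with 4 at least 1.5-fold higher, 1 at least 1.5-fold lower and a median of 0.28. NQO1, a quinone reductase, was at 261.7 and 470.3 CPM (1.80-fold, 1.72 to 1.88). Against it, HMOX1, haem oxygenase, was at 121.4 and 123.4 CPM (1.02-fold, 0.945 to 1.09), which joined a ratio of 0.575 (0.479 to 0.689) among cells called G1 with 1.25 (1.13 to 1.39) in S and 1.12 (0.981 to 1.28) in G2/M. UGDH was the lowest member at 54.4 and 34.9 CPM. Of the hypoxia and glycolysis genes 27 of 28 were higher, 3 by at least 1.5-fold, and a median of 0.24. BHLHE40, a hypoxia-responsive repressor, was its highest member at 34.7 and 55.6 CPM (1.60-fold, 1.42 to 1.81), and ADM was the one lower member at 0.801-fold.

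Genes of mitosis were a little higher. Of 52 measured G2/M genes 44 were higher, 2 by at least 1.5-fold (TTK and PSRC1) and 0 lower by that much, with a median of 0.20, whereas the 33 S-phase genes had a median of 0.06. CCNB1, the mitotic cyclin, was at 191.4 and 239.7 CPM (1.25-fold, 1.19 to 1.32). Scores of these lists called 34.1% of cells G2/M before treatment (30.3 to 38.1) and 41.8% in DMSO (37.2 to 46.5), 48.2% (44.1 to 52.3) and 40.4% (35.9 to 45.2) S, and 17.7% (14.7 to 21.0) and 17.8% (14.3 to 21.6) G1. Since 56.6% and 50.8% of cells had a score close to a boundary, these calls are ranges of a score and no measure of division.

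Of the 16 measured drug targets and transporters of the selection 11 were higher and 5 lower. The 8 tubulins among them, set apart after their values were seen, were all higher, from 1.12-fold (TUBA1B) to 2.64-fold (TUBA1A), with TUBB2A at 39.4 and 69.7 CPM (1.77-fold) and TUBB at 1006 and 1347 CPM (1.34-fold, 1.31 to 1.37). CDK4 and CDK6, the kinases that palbociclib inhibits, were at 0.814-fold (0.769 to 0.861) and 0.760-fold (0.628 to 0.917). Lower as a group were the cytosolic ribosomal proteins, of which 15 of 79 were higher and 64 lower, with a median of -0.08 and 0 past 1.5-fold in either direction. RPS18, RPL19, RPL21 and RPL23A were 4 of the 5 genes furthest below their pre-treatment level in CPM, and RPL23A was 1.27-fold lower (1.25 to 1.29). Genes of ATF4 and the unfolded protein response, which answer amino acid shortage and misfolded protein, had 12 of 38 members higher and a median of -0.13, with 1 member past 1.5-fold, the co-chaperone DNAJB9 at 20.8 and 11.9 CPM (1.75-fold lower, 1.42 to 2.18). Of 6 IGF binding and signalling genes 5 were lower and 3 of these by at least 1.5-fold, IGFBP6 among them at 141.3 and 86.9 CPM (0.615-fold, 0.568 to 0.665).

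The secreted cytokines were divided evenly, with 5 of 10 higher and a median of -0.01. IL8, a neutrophil chemoattractant, was 1.01-fold (0.979 to 1.03) and IL6 0.978-fold (0.898 to 1.06), whereas IL32 was at 210.8 and 132.2 CPM (0.627-fold, 0.588 to 0.668). Nuclear oxidative phosphorylation genes (69 measured) and mitochondrially encoded genes (12) had medians of 0.01 each, with 0 members past 1.5-fold. The plot of list members shows these narrow lists beside the wider ones.

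**Figure D4:**
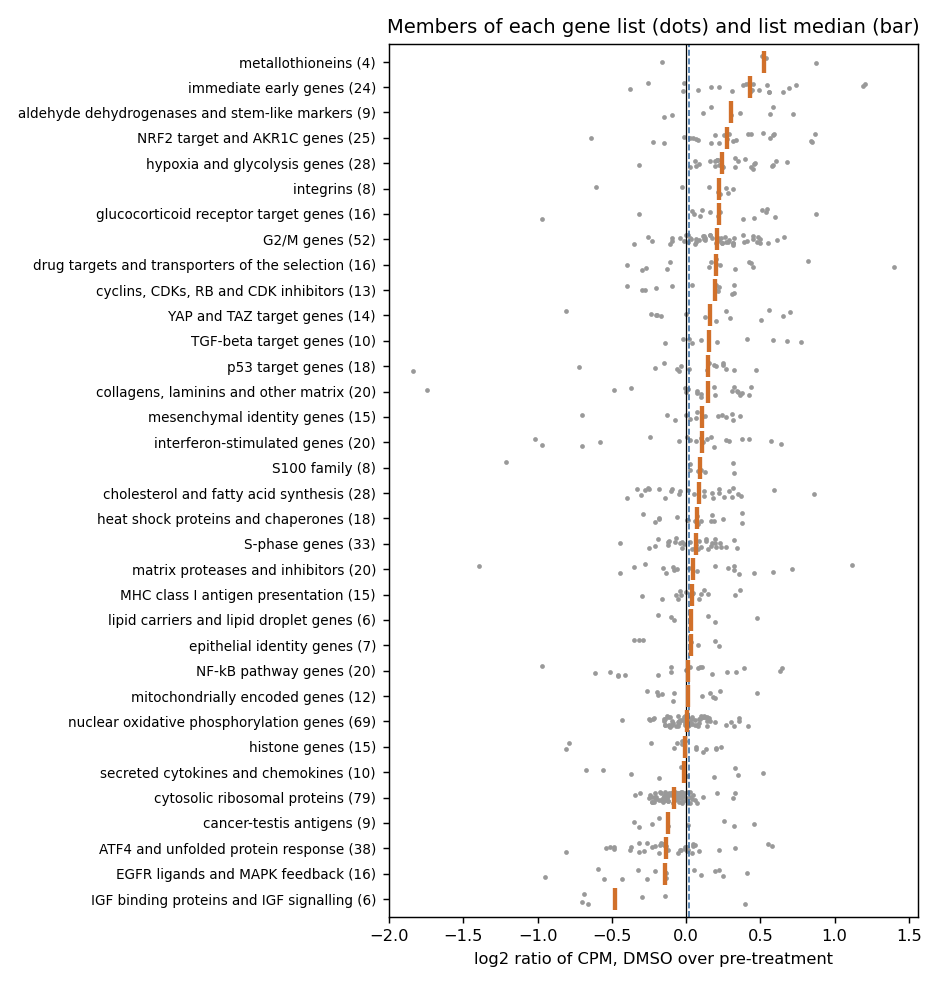
Log2 ratio of CPM, DMSO over pre-treatment, of each member (grey dots) and the median (orange bar) of the gene lists with at least 4 measured members, whose number stands in brackets; the solid line marks 0 and the dashed line the median of all genes, 0.02. Metallothioneins (0.52) and immediate early genes (0.43) have the highest medians and IGF signalling genes (-0.48) the lowest.

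The spread between cells was smaller in DMSO. Variation was measured as the variance over thinned cells less the mean, divided by the squared mean, which is 0 for counting noise alone. Over 2333 genes averaging 0.5 UMI or more per cell its median was 0.128 before treatment and 0.105 in DMSO, and 60.4% of genes had a lower value in DMSO. The largest differences downward came from small numbers of cells. ISG15, an interferon-induced ubiquitin-like protein, had a value of 8.40 before treatment and 1.77 in DMSO, the largest difference of any of these genes. Its sum was 165.9 CPM before treatment and 110.9 CPM in DMSO (0.668-fold, 0.623 to 0.717), while the median cell held 1 UMI in both.

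Taken with IFIT1, IFIT2 and IFIT3, which block viral RNA, ISG15 summed to at least 10 UMIs in 12 of 583 thinned cells before treatment (2.06%, 1.07 to 3.57) and 8 of 445 in DMSO (1.80%, 0.779 to 3.51). Those cells, chosen by this sum, held 43.2% and 21.2% of all UMIs of these 4 genes. The highest cells had 78, 78 and 65 UMIs before treatment and 26, 21 and 16 in DMSO, and the remaining cells averaged 1.18 and 1.04 UMIs. The shares, each of 1 library, lay close together. The highest cells held fewer UMIs in DMSO, where fewer cells were measured. Over cells, ISG15 correlated with IFIT3 at r of 0.390 before treatment and 0.305 in DMSO, and with IFIT1 at 0.336 and 0.301. IFIT1 and IFIT2 were sparse, with a UMI in 17 and 10 thinned cells before treatment and in 14 and 7 in DMSO. Of the whole list of interferon-stimulated genes, 14 of 20 measured members were higher in DMSO, with a median of 0.11. By at least 1.5-fold 1 member was higher and 3 were lower, among them IFIT3 at 2.03-fold lower (1.67 to 2.47). The bases before the start sites of 3 of the 4 summed genes (RefSeq, GRCh38.p14, plus strand, chr1:1013247-1013496 for ISG15, chr10:89327747-89327996 for the first of 2 listed starts of IFIT3, and chr10:89392373-89392622 for IFIT1) are shown as examples. Most UMIs of the sum were those of ISG15, and IFIT2 is not shown. Capitals mark the interferon-response element pattern, GAAA followed by any 2 bases and GAAA again, searched on both strands with overlaps allowed: each of the 3 held 2 matches, which overlap in ISG15, and 3.02% of 35116 promoters held at least 1.
ISG15: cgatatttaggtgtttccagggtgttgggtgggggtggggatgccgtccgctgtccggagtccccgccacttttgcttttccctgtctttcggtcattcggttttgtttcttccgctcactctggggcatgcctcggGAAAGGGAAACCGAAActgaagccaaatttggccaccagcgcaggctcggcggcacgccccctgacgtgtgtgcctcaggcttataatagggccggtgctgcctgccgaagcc
IFIT3: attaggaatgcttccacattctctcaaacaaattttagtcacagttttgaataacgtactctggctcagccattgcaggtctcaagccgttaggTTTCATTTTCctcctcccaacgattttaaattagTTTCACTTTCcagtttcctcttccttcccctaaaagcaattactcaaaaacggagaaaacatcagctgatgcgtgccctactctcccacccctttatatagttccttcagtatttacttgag
IFIT1: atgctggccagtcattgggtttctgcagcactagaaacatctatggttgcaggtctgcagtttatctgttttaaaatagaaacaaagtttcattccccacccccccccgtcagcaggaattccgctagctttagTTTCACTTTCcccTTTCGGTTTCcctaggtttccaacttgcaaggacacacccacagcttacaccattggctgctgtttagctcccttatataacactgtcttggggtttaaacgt
The matches describe the letters of the reference and were not measured as sites.

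HSPA5, the chaperone of the endoplasmic reticulum, had the next largest, with a value of 3.99 before treatment and 0.817 in DMSO. At least 10 UMIs of it were found in 13 of 583 cells before treatment (2.23%, 1.19 to 3.78), which held 25.7% of its UMIs, and in 1 of 445 cells in DMSO (0.225%, 0.00569 to 1.25). Other cells averaged 1.28 and 1.29 UMIs. The ratio of DMSO over pre-treatment differed by phase, at 0.196 (0.157 to 0.242) among cells called G1, 0.837 (0.759 to 0.923) in S and 1.11 (1.01 to 1.22) in G2/M. Cells called G1 numbered 103 before treatment and 79 in DMSO, and whether a few cells set these ratios was not tested. Over cells its correlation with HERPUD1, a stress-induced protein of the same compartment, was 0.332 before treatment and 0.0551 in DMSO, and with DDIT3, a transcription factor of the stress response, 0.233 and 0.0469. FN1, the matrix glycoprotein fibronectin, had a lower spread in DMSO (4.70 and 1.54) with a higher sum (56.1 and 69.6 CPM, 1.24-fold), and was found in 32.6% and 44.3% of thinned cells. KRT75, SAT1 and TMEM255B were the 3 genes with the largest differences upward, at 1.74, 0.636 and 0.304 before treatment and 4.10, 1.73 and 1.38 in DMSO.

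Placed along the genome, neighbouring genes differed together in 2 regions. For 98.0% of the 6740 genes a position was found in GRCh37, the build of the authors' alignment. In 256 windows of 10 Mb with at least 8 genes, the window's median log2 ratio, centred on the median gene, had a median size of 0.0451, and it reached 0.2 in 6. The first 20 Mb of chromosome 7 and of chromosome 17 accounted for 4 of these 6. On chromosome 7, 44 of 45 genes in that stretch were lower in DMSO, with a median of -0.39. On chromosome 17, 92 of 99 were higher, with a median of 0.27. The rest of each chromosome lay at -0.04 (264 genes) and -0.09 (303 genes). In windows of 5 Mb the difference ended between the fourth and the next window of chromosome 7, from -0.30 to 0.03, and between the fifth and the next of chromosome 17, from 0.37 (5 genes) to -0.03. The other 2 windows held 8 genes on chromosome 9 (0.32) and 9 on chromosome 20 (-0.25). The regions were picked after the values were seen, and DNA was not measured here.

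Several genes named above or in the lists belong to these stretches. On chromosome 7, MAD1L1, a spindle checkpoint protein (chr7:1855429-2272878), was at 56.2 and 28.4 CPM (1.98-fold lower, 1.73 to 2.26), PSMG3, a proteasome assembly chaperone (chr7:1606968-1610641), at 158.1 and 96.2 CPM (1.64-fold lower, 1.52 to 1.77), and TSPAN13 (chr7:16793380-16824161) at 30.8 and 15.2 CPM (2.04-fold lower, 1.69 to 2.45). ACTB, the cytoskeletal actin, lies in the same stretch and was 1.01-fold (0.995 to 1.03). On chromosome 17, SREBF1, a transcription factor of lipid synthesis (chr17:17713713-17740316), was at 24.5 and 44.5 CPM (1.82-fold, 1.58 to 2.1), and ALDH3A2, a fatty aldehyde dehydrogenase (chr17:19551449-19589073), at 23.8 and 39.3 CPM (1.65-fold, 1.42 to 1.91). In the JQ1 pair the chromosome 17 stretch was also shifted, with a median of 0.18 (77 of 91 genes higher in JQ1-B), while the chromosome 7 stretch was at -0.02.

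Per cell, the 2 regions differed in form. The 42 chromosome 7 genes under 500 CPM summed to a median of 30 UMIs per thinned cell before treatment (middle 50% of cells, 25 to 35) and 23 in DMSO (18 to 27), and both distributions had a single peak. The other libraries had medians between 21 and 28. The 93 chromosome 17 genes under 500 CPM had 2 peaks before treatment: 104 of 583 cells held 24 to 29 UMIs, 58 held 36 to 41 and 89 held 42 to 47. In DMSO there was 1 peak, with 108 of 445 cells at 48 to 53 UMIs. The middle 50% of cells spanned 27.5 to 50 UMIs before treatment and 42 to 55 in DMSO, with medians of 39 and 48.

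With the dip as a divide, 254 of 583 cells (43.6%, exact interval 39.5 to 47.7) held fewer than 36 UMIs of the chromosome 17 genes before treatment, and 46 of 445 (10.3%, 7.67 to 13.5) in DMSO. The divide was set after seeing the values and cuts a range, with 63 and 37 cells within 33 to 38 UMIs. At 30 UMIs the shares were 31.4% and 5.39%, and at 42 UMIs 53.5% and 23.4%. In the other libraries the share under 36 UMIs ran from 3.42% in paclitaxel to 65.5% in JQ1-A. When the 93 genes were split into alternate genes along the chromosome, the sums of both sets correlated over pre-treatment cells with r of 0.653. This was the highest of 131 windows of 20 Mb with at least 20 genes, whose median was 0.208. In DMSO the value was 0.397, eighth of 131, at a median of 0.189. The next highest windows before treatment lay on chromosome X, at 0.580 (47 genes) and 0.542 (46 genes). The other chromosome 17 windows had 0.446, 0.482 and 0.488. The number of genes in a window was not adjusted for.

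**Figure D5:**
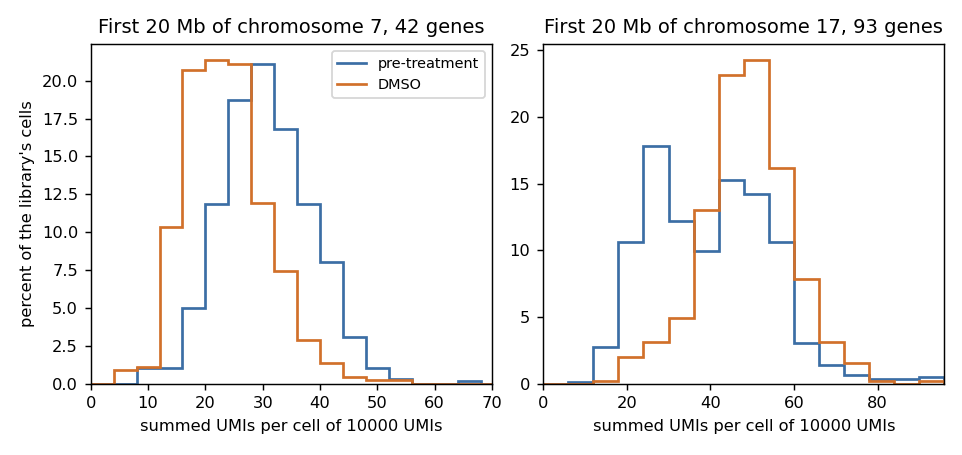
Summed UMIs per cell (x axis) of genes under 500 CPM in the first 20 Mb of chromosome 7 (left, 42 genes) and chromosome 17 (right, 93 genes) against the percent of the library's cells (y axis), cells thinned to 10000 UMIs, for 583 pre-treatment (blue) and 445 DMSO cells (orange). The chromosome 7 curve is shifted left in DMSO, with medians of 30 and 23 UMIs, and the left peak of the chromosome 17 curve before treatment is much smaller in DMSO.

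Cells on the 2 sides of the divide also differed in other respects before treatment. Those under 36 UMIs had a median of 19726 UMIs in all and 4.23% mitochondrial UMIs, against 22961 and 3.72% from 36 UMIs up, and 24.4% against 12.5% were called G1, so that depth and cell cycle moved with the divide and their part in it was not tested. DCN averaged 0.453 UMIs per cell under the divide and 0.146 above it, MMP1 0.315 and 0.109, TFPI2 1.19 and 0.550, and FN1 0.886 and 0.340, while SAA1 went the other way at 0.299 and 0.939. Over all deposited cells the CPM ratios of DMSO over pre-treatment were 0.38 for MMP1, 0.299 for DCN and 1.24 for FN1. Among cells from 36 UMIs up, ratios of mean UMIs per thinned cell were 0.87 (0.537 to 1.41), 0.498 (0.303 to 0.806) and 2.11 (1.69 to 2.65). These sets of ratios also differ in cell filter and thinning, so the change cannot be credited to the divide alone. FHL1 (6.45), TIMP1 (2.49), TUBA1A (2.46) and S100A2 (0.43) kept a more than 2-fold difference within the cells from 36 UMIs up. Under the divide, where DMSO had 46 cells, the ratios were 6.78 for FHL1 (3.72 to 12.5), 1.31 for TIMP1 (1.25 to 1.38), 1.83 for TUBA1A (1.32 to 2.5) and 0.414 for S100A2. Those 46 cells had a median of 17667 UMIs in all, and 43.5% were called G1. The pre-treatment cells under the divide had 19726 UMIs and 24.4%. The ratios under the divide thus also compare unlike depth and phase, whose part was not tested. SAA1 took opposite directions, at 3.12 (2.1 to 4.60) under the divide and 0.219 (0.169 to 0.280) above it. Under the divide its DMSO level rests on 43 UMIs in 46 cells. The highest DMSO cell on either side held 39 UMIs of the acute-phase list to which SAA1 belongs. A few cells may therefore set this ratio, and its interval does not cover differences between cells.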

How the data were processed

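Single-cell RNA libraries were made with the Chromium 3' v2 kit. The UMI counts per gene and cell were deposited by the authors, who aligned reads to hg19 and counted them with Cell Ranger and Seurat, keeping genes found in at least 3 cells. These counts have no normalization, and the library of each cell was taken from the deposited metadata. Here counts of all cells of a library were summed and divided by the library total (CPM), in Python 3.11.15 with numpy 2.4.6 and scipy 1.17.1. Ratios have exact conditional binomial (Clopper-Pearson) 95% intervals, which cover counting error only. Per-cell values used cells passing the study's filter (1 to 15% mitochondrial UMIs, at least 2000 genes) thinned to 10000 UMIs, and phases were scored in scanpy 1.11.5. TMM factors came from edgeR 4.0.16. Genes were placed with GENCODE on GRCh37, and promoter bases came from RefSeq. Ratios and the variation measure were tested on simulated data. Named genes were the 12 largest and 12 smallest ratios above 20 CPM, the 5 largest rises and falls in CPM, in share of cells and in variation (3 for its change), and list extremes past 1.5-fold. Other members of the lists were named beside these after their values were seen. Members and lists were chosen with earlier results of these data known.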

Additional observations from a re-analysis of the deposited data

How the results depend on the processing

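No paired analysis was possible because each side was 1 library. The count of genes at least 2-fold higher or lower (14 and 26) was 33 and 47 with a minimum of 5 CPM, 8 and 9 with 20 CPM, 901 and 818 with no filter on low values, and 105 and 119 at 1.5-fold, and the lower genes numbered 17 with a pseudocount of 1 CPM. The median absolute log2 ratio was 0.119 among genes of at least 100 CPM. List medians past 0.2 above 0 numbered 9, and 5 with TMM factors. Pre-treatment variation was 0.108 for genes of at least 1 UMI, 0.113 with cells thinned to 5000 UMIs, and 0.113 in cells with at least 36 UMIs of the chromosome 17 segment, an alternative added after seeing the data, and in each case the DMSO value was the lower one (0.0961, 0.105 and 0.0965). Under the settings tried, those of the 66 named genes past 1.5-fold changed direction only among G1 cells, namely MGP (0.679), CDH11 (1.12) and TTK (0.765, interval 0.0130 to 14.7). Of those under 1.5-fold, HMOX1 (0.575) and MT-CO3 (1.04) did so in G1 cells, CXCL3 (1.16) and HSPA5 (1.11) in G2/M cells, and none in S cells, while HMOX1, close to 1 over all cells, also crossed 1 under several other settings. Cells under 36 UMIs of the chromosome 17 segment were not among these settings. There SAA1 (3.12) and TTK (0, from 20 UMIs before treatment and 0 in DMSO), both past 1.5-fold over all cells, also changed direction. Ratios outside counting intervals numbered 0 with equal UMI totals and at most 27 of 66 (G1 cells) otherwise. The causes were not tested. Depth limits the shares of cells with a UMI, which depend on thinning.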
